A study of Mus musculus with 2 samples.

Results

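Neurons that carried *Tbr1* with little or none of the basal progenitor gene *Eomes* were taken from a single cell library of the embryonic mouse telencephalic vesicle, where they are labelled pallial glutamatergic neurons. The cells were selected on their own counts of marker genes, given as unique molecular identifiers (UMIs), each of which stands for 1 transcript molecule caught in a cell barcode. Barcodes were kept with 2500 or more UMIs and under 6% of them from mitochondrial genes. N is the sum of UMIs of the neuronal genes *Tubb3*, *Stmn2*, *Dcx*, *Elavl3*, *Gap43* and *Mapt*, and A that of the apical progenitor genes *Sox2*, *Hes1*, *Hes5*, *Vim*, *Nes*, *Fabp7* and *Slc1a3*. A cell was a member where N exceeded A, *Tbr1* had 2 or more UMIs, *Eomes* at most 1, and *Trp73*, *Gad1* and *Gad2* had 0. This gave 334 cells of 14283 barcodes, and they are called Tbr1-gated neurons here because most of them lacked *Neurod2* and *Neurod6*, markers named with the label. They were described across genes against the other 2421 cells with N>A.

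The library came from 3 WT C57BL/6J embryos from 2 litters, labelled E12 and described in the study's methods as E11.5 to E12, with about 20000 cells loaded and kit version 3.1 of 10x Genomics. It held 194821794 UMIs, with a median of 8503 UMIs and 3261 genes per barcode. The other library of the series, used for one comparison, came from explants around the septum of 8 *PGKCre;Rosa26YFP* embryos at E11.5 and 4 *Dbx1Cre;Rosa26tdTomato* embryos at E12.5, each set from 2 litters, with about 10000 cells loaded and kit version 2. It held 5827 barcodes and 83103280 UMIs, with a median of 12722 UMIs, and its label also names C57BL/6J as wild type. PGKCre recombines in all cells, whereas Dbx1Cre recombines only in cells that express *Dbx1* and their progeny. Embryos were pooled, so that each condition is 1 library without replicates, and neither a treatment nor a mutation of *Dbx1* was compared here. Only 1 barcode sequence occurred in both libraries.

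Glutamatergic neurons of the pallium arise from *Pax6*- and *Neurog2*-expressing apical progenitors, either directly or through *Eomes*-expressing basal progenitors. Newborn neurons then switch on *Tbr1*, a T-box factor of the preplate, subplate and layer 6, and the vesicular glutamate transporter *Slc17a6*. *Neurod2* and *Neurod6* are basic helix-loop-helix (bHLH) factors that follow in this cascade. At this age the first neurons lie in the preplate, among them Cajal-Retzius cells, future subplate cells and neurons of the ventral and lateral pallium, while GABAergic neurons come from the subpallium under *Dlx* control.

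Of the steps that followed *Tbr1*, the *Eomes* limit removed the most cells. Of the 11765 barcodes with enough UMIs, 11498 passed the mitochondrial limit, and 2755 of these had N>A. *Tbr1* left 809, *Eomes* 416, *Trp73* 345 and *Gad1* with *Gad2* the final 334, or 12.1% of N>A cells (exact Clopper-Pearson 95% interval 10.9-13.4%). All intervals given here cover counting error only, since cells of a pooled library are not replicates, and for the same reason no p-value was computed. The 334 cells held 3016850 UMIs, with a median of 7182 UMIs, against 7224 in the other N>A cells. Their median N was 59 and their median A was 4, against 34 and 6 in the others.

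The other N>A cells were a mixture, and it sets what a gene is compared with. In order of assignment, 998 had a UMI of *Gad1* or *Gad2* (GABAergic gate), 155 of *Trp73* (Cajal-Retzius gate), 713 had 2 or more of *Eomes* (Eomes gate), 115 had 1 UMI of *Tbr1* and 440 had none. The median N was 36, 38, 38, 46 and 17 in these classes. The last class held 57 of the 68 barcodes among the others in which globin made up 20% or more of the UMIs, whereas the Tbr1-gated neurons held 1. Scrublet, a tool that finds barcodes resembling the sum of a cell pair, marked 34 of the Tbr1-gated neurons (10.2%) and 8.55% of the others, and the marked members were deep, with a median of 15689 UMIs. The main results were therefore computed again without them.

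The label was checked against the 4 markers named with it. *Tbr1* was used by the rule, and its UMIs ranged from 2 to 13 per cell with a median of 3. *Slc17a6* was found in 277 of the 334 cells (82.9%, 78.5-86.8%) at 245 CPM (UMIs of a gene per 1000000 UMIs of the summed cells; exact Poisson 95% interval 228-264). With each cell thinned to 2500 UMIs that share was 44.6%, whereas erythroid barcodes, which should lack the gene and show the level of free RNA, reached 0.973%. The 2 bHLH markers were rare. *Neurod2* was found in 33 cells (9.88%) at 20.9 CPM (16.1-26.7), and *Neurod6* in 15 cells (4.49%) at 7.96 CPM (5.10-11.8). At least 1 of *Slc17a6*, *Neurod2* and *Neurod6* was seen in 285 cells (85.3%, 81.1-89.0%), but *Neurod2* or *Neurod6* in only 40 (8.70-16.0%). The label thus held for the glutamatergic transporter and not for *Neurod2* and *Neurod6* in most cells at this depth.

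Markers of other cell types were then read in the same cells. The 7 endothelial, mural and macrophage markers were at or near 0, with 0 UMIs of *Cldn5*, *Kdr*, *Aif1*, *C1qb* and *Csf1r*, 4 of *Pecam1* and 5 of *Pdgfrb*. The mesenchymal markers were seen in few cells, with 52 UMIs of *Col3a1* in 11 cells, 33 of them in marked doublets, 22 of *Lum* in 6 and 11 of *Col1a1* in 6. The Cajal-Retzius gene *Reln*, which encodes the secreted protein reelin, was found in 21.9% (17.5-26.7%) of thinned Tbr1-gated neurons, above the 6.11% (4.71-7.78%) of the GABAergic gate and the 9.40% (7.36-11.8%) of the Eomes gate, and below the 45.2% of the Cajal-Retzius gate. Thinned erythroid barcodes held it in 37.0%, more than the GABAergic and Eomes gates, so that they are no measure of free RNA for this gene. The subplate and claustrum factor *Nr4a2* was found in 5.99% (3.70-9.10%), above 1.60% (0.919-2.59%) in the GABAergic gate and 1.82% (0.974-3.098%) in the Eomes gate, while it overlapped the 8.70% (4.25-15.4%) at 1 *Tbr1* UMI, the 7.74% (4.06-13.1%) of the Cajal-Retzius gate and the 3.16% (1.70-5.35%) of erythroid barcodes. Its level was 25.8 CPM (20.4-32.3) in Tbr1-gated neurons, 43.6 (30.5-60.4) at 1 *Tbr1* UMI and 34.2 (25.2-45.5) in the Cajal-Retzius gate.

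Across the classes, the glutamatergic transporter was shared by all that carried *Tbr1*, *Eomes* or *Trp73*, while the summed level of *Foxp2* was highest in the Tbr1-gated neurons. *Slc17a6* stood at 245 CPM in Tbr1-gated neurons, 241 at 1 *Tbr1* UMI, 254 in the Eomes gate and 244 in the Cajal-Retzius gate, and at 18.8 in the GABAergic gate, where only the last lies outside the counting error of the first. *Neurod2* stood at 20.9, 13.3, 25.3, 21.1 and 1.30 CPM in the same order, so that the glutamatergic classes overlapped in their intervals. The LIM homeobox factor *Lhx9* was highest at 1 *Tbr1* UMI, with 556 CPM against 436 in Tbr1-gated neurons, 368 in the Cajal-Retzius gate, 347 in the Eomes gate and 25.3 in the GABAergic gate. *Foxp2*, a forkhead factor of deep layers, had its highest summed level in the Tbr1-gated neurons, at 503 CPM against 241 at 1 *Tbr1* UMI, 196 in the GABAergic gate, 134 in the Eomes gate and 111 in the Cajal-Retzius gate. By share of thinned cells it was found in 26.1% (21.4-31.1%) of Tbr1-gated neurons and 22.1% (19.6-24.9%) of the GABAergic gate, which overlap. The pallial homeobox gene *Emx1* was highest in the Eomes gate, at 124 CPM, and stood at 51.1 CPM in Tbr1-gated neurons.

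**Figure D1:**
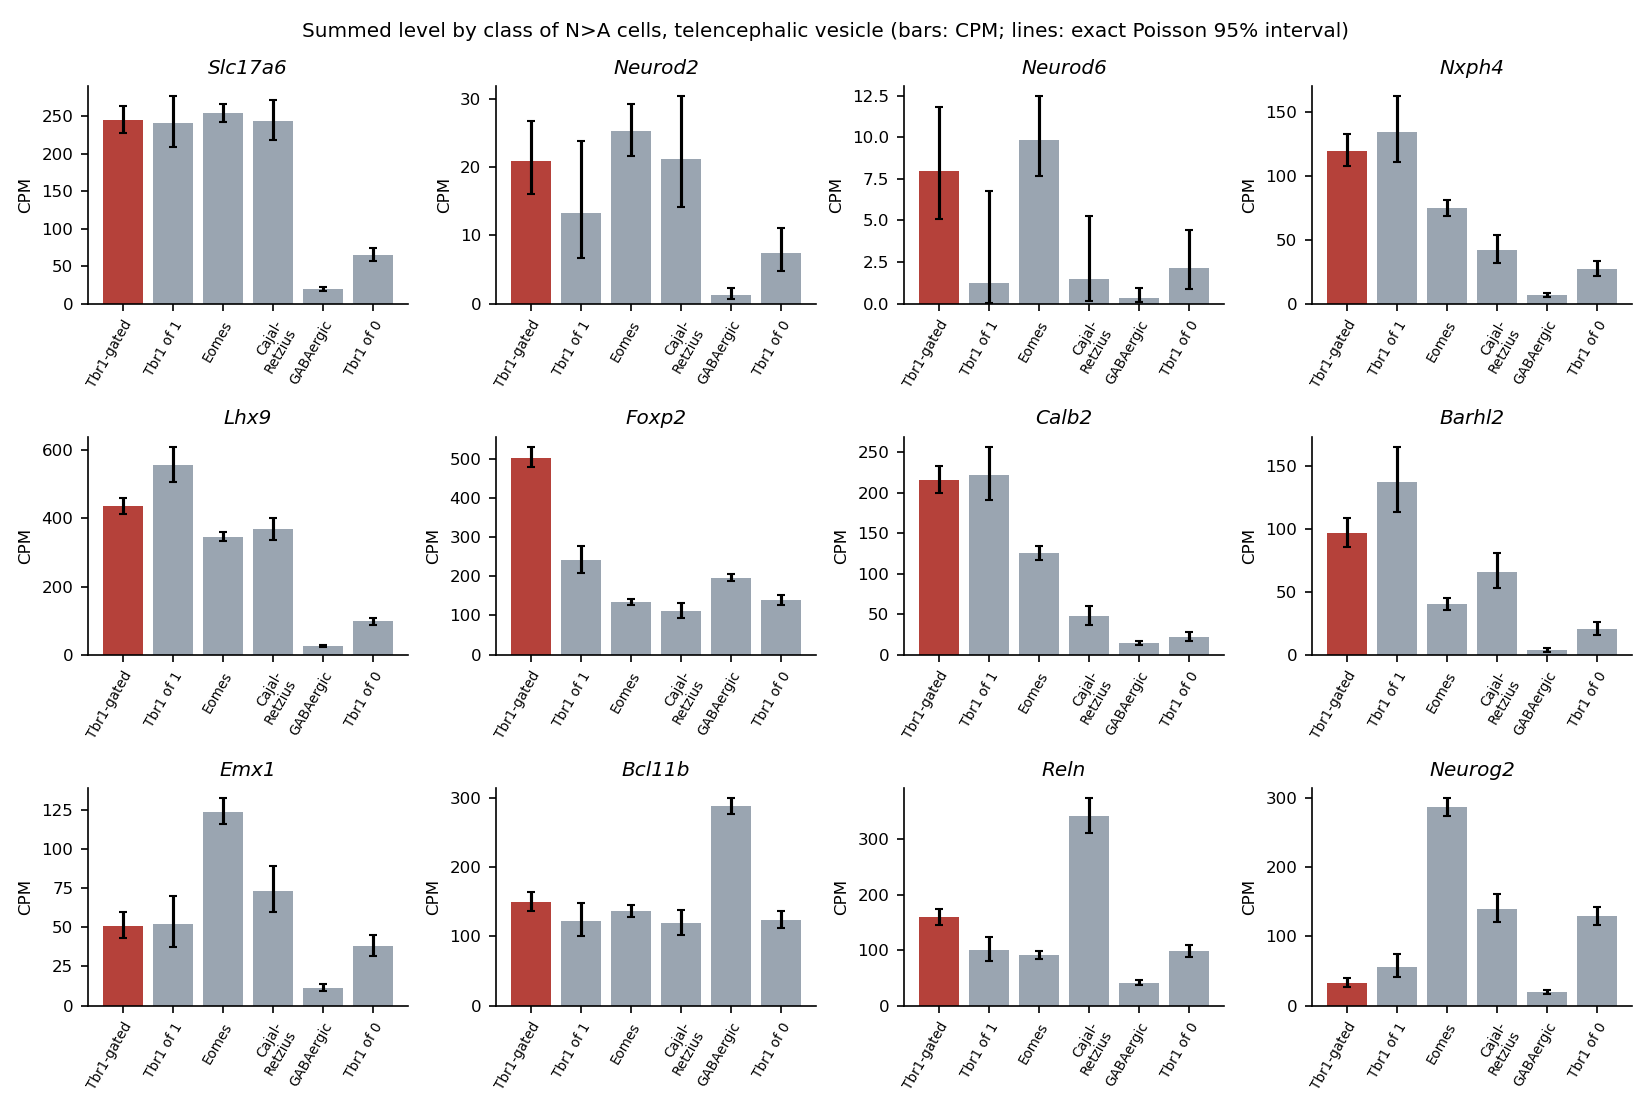
Summed level (CPM) of 12 genes in the 6 classes of N>A cells of the telencephalic vesicle, with bars for the level and lines for the exact Poisson 95% interval, and with the Tbr1-gated neurons in red. *Slc17a6* is near 250 CPM in each class that needs *Tbr1*, *Trp73* or *Eomes*, while *Foxp2* is highest in the Tbr1-gated neurons at 503 CPM.

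Levels at the edges of the gate were then compared. Of the members, 99 had 2 UMIs of *Tbr1*, 86 had 3 and 149 had 4 or more. At 1 UMI, just outside, *Slc17a6* stood at 241 CPM and *Foxp2* at 241, and at 2 UMIs, just inside, *Slc17a6* stood at 227 and *Foxp2* at 443. At 3 UMIs *Foxp2* stood at 243 CPM (209-280), near its level just outside, and at 4 or more it stood at 673, so that it did not follow the *Tbr1* count in order. *Eomes* had 1 UMI in 100 members and 0 in 234. Members with 1 *Eomes* UMI had 47.7 CPM of *Neurod2*, 61.0 of the proneural factor *Neurog2* and 325 of *Foxp2*, whereas members with 0 had 9.45, 20.8 and 579. Cells just outside, with 2 *Eomes* UMIs, had 34.9 CPM of *Neurod2*, 65.0 of *Neurog2* and 190 of *Foxp2*. The rule used these counts, so that the values are a description of its edge.

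Of the 11336 genes with at least 100 UMIs over both sets, 261 (2.30%) were at a ratio of 2 or more in Tbr1-gated neurons and 511 (4.51%) at 0.5 or less, with a median log2 ratio of -0.05 over all genes. A ratio is the CPM of the Tbr1-gated neurons over that of the other N>A cells, with an exact binomial 95% interval, and a gene counts as higher or lower past these limits. The rule itself removed *Gad*, *Eomes* and *Trp73* cells, so the lower genes in part restate it and neither direction is independent of the choice of cells.

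The 15 genes with the largest ratios included a cation channel, a synaptic adhesion molecule, a glypican and a glutamate receptor, each found in a minority of the cells. *Trpm3*, a cation channel (chr19:22139046-22995410, GRCm38), stood at 202 CPM against 32.7 in the others, a ratio of 6.18 (5.54-6.89), and was found in 109 of the 334 cells. *Lrfn5*, a synaptic adhesion molecule (chr12:61523150-61858342), stood at 234 against 40.7 CPM, a ratio of 5.77 (5.22-6.37), in 140 cells. *Gpc5*, a glypican of the cell surface (chr14:115092215-116525179), stood at 190 against 30.6 CPM, a ratio of 6.20 (5.53-6.94), in 87 cells. *Samd3*, which encodes a sterile alpha motif protein, was the most widely found of the 15 leading genes, in 216 cells (64.7%), at 189 against 38.9 CPM and a ratio of 4.85. The metabotropic glutamate receptor gene *Grm8* had a ratio of 4.49, *Brinp3* of 4.73, the bicarbonate transporter gene *Slc4a10* of 5.10, the cholecystokinin receptor gene *Cckar* of 5.03 and *Arpp21*, a cAMP-regulated phosphoprotein, of 4.93. *Mab21l2* followed at 5.66, with the noncoding genes *Gm13404* at 5.56 and *A530058N18Rik* at 4.74.

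The remaining 3 of these 15 rested on few cells. *Gm28526* had the highest ratio of all at 10.6 (8.15-13.9), but its 142 UMIs came from 16 cells. *Adamts18*, a secreted metalloprotease, had a ratio of 6.55 with 44 of its 51 UMIs in 1 cell, and 2.17 when each cell weighed the same. *Rtl4* had a ratio of 5.64 with its UMIs in 14 cells. These values therefore describe a small number of cells and not the Tbr1-gated neurons as a whole.

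Of the leading genes, *Trpm3*, *Gpc5* and *Brinp3* were also high in cells with 1 *Tbr1* UMI. *Trpm3* stood at 206 CPM there, 62.6 in the Cajal-Retzius gate, 26.0 in the Eomes gate and 16.0 in the GABAergic gate. *Gpc5* stood at 174 CPM there, 31.0 in the Eomes gate and 7.78 in the GABAergic gate. *Brinp3* was higher at 1 *Tbr1* UMI (194 CPM) than in the Tbr1-gated neurons (109 CPM). *Samd3* differed in that the Cajal-Retzius gate reached 139 CPM, against 122 at 1 *Tbr1* UMI.

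**Figure D2:**
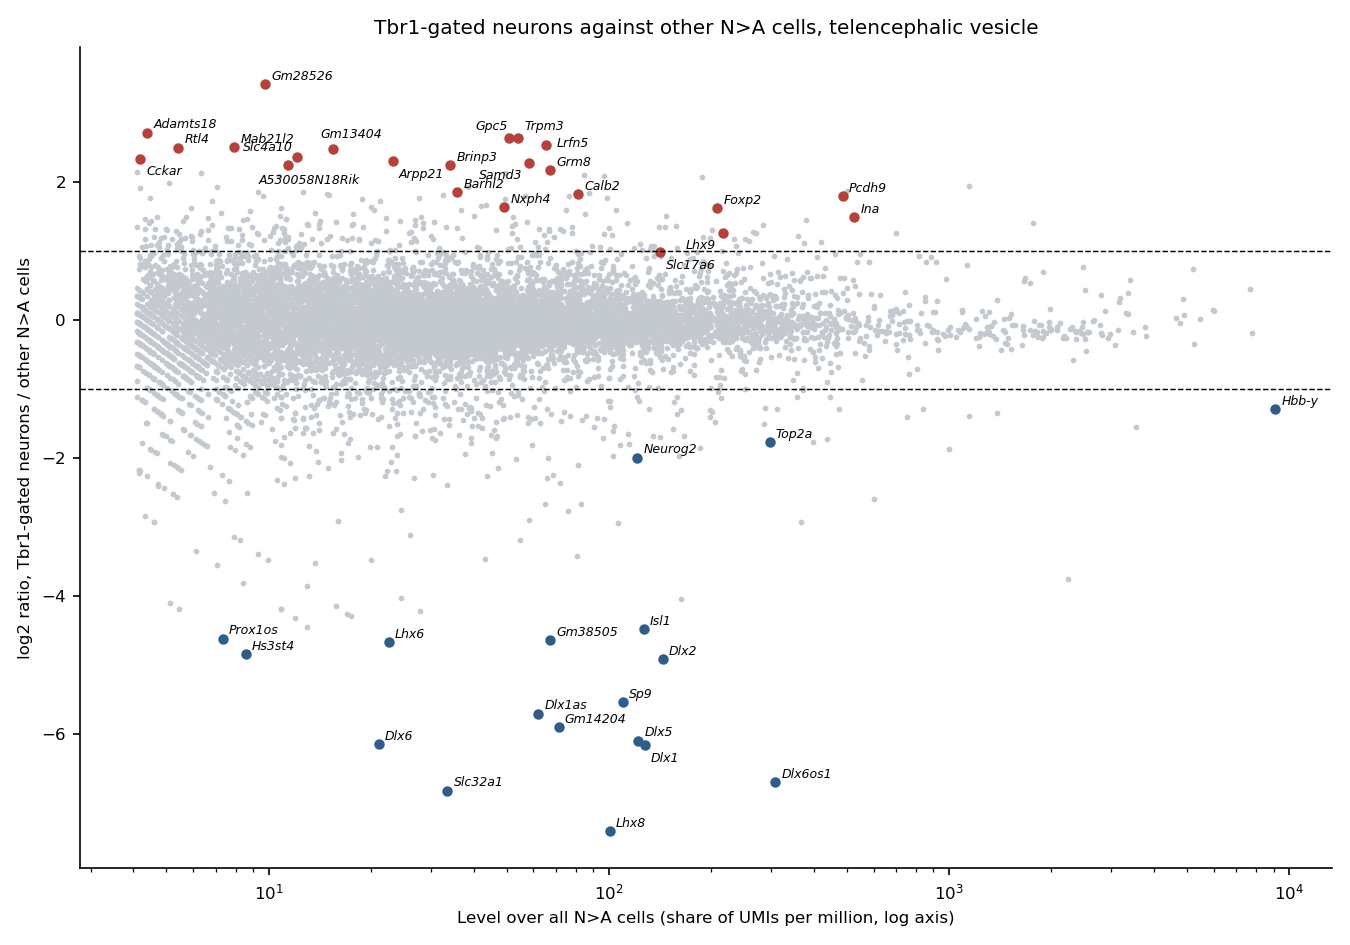
Each point is a gene, with its level over all N>A cells in CPM on a log axis and the log2 ratio of Tbr1-gated neurons to the other N>A cells, where dashed lines mark 2-fold, red and blue mark named higher and lower genes, and *Slc17a6* is shown in red just under the line. *Lhx6* had 0 UMIs in Tbr1-gated neurons and is drawn at its bound. *Gm28526*, *Trpm3*, *Gpc5* and *Lrfn5* lie near the top, and the *Dlx* genes near the bottom.

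Of the 15 lowest genes, 9 were in the list of GABAergic genes, whose cells the gate removes. *Lhx8*, a LIM homeobox factor of the ventral telencephalon, had 2 UMIs in Tbr1-gated neurons and a ratio of 0.00588. *Slc32a1*, the vesicular GABA transporter, had 1 UMI and a ratio of 0.00883. *Dlx6os1*, *Dlx1*, *Dlx6*, *Dlx5*, *Gm14204*, *Dlx1as*, *Sp9* and *Dlx2* lay between 0.00958 and 0.0330, with *Hs3st4*, *Gm38505*, *Prox1os* and the LIM homeobox factor *Isl1* up to 0.0446. *Lhx6* had 0 UMIs, against 25.3 CPM in the others, so that with 3 counts as a floor it was at least 25.4-fold lower. Its exact interval reached up to a ratio of 0.0486. *Dlx6os1* overlaps *Dlx6* and *Dlx1as* overlaps *Dlx1*, and whether strand was used in the counting is not stated in the sources used here.

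Which genes were higher depended in part on the comparator, whose largest class is the GABAergic gate. With that gate left out 299 genes were higher, 155 of them shared with the 261, which is 51.8% of the one list and 59.4% of the other. *Lhx9* had a ratio of 2.40 (2.25-2.55) against all others, of 17.2 against the GABAergic gate alone and of 1.46 without it. *Slc17a6* likewise had 1.97, 13.0 and 1.21, and the subplate gene *Nxph4* had 3.09, 18.1 and 1.91. *Foxp2* behaved in the opposite way, with 3.08 (2.90-3.27), 2.57 and 3.61, and *Lrfn5* had 5.77, 8.09 and 4.75. *Pcdh9*, a delta protocadherin, had 3.48, 3.78 and 3.28. Thus *Lhx9*, *Slc17a6* and *Nxph4* differed more from the GABAergic gate than from the other 1423 cells of the comparator, of which 440 had no *Tbr1* UMI and held *Slc17a6* at 64.8 CPM, whereas *Foxp2*, *Pcdh9* and *Lrfn5* were past 2-fold against both.

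A total of 211 genes in 18 lists were read next, ordered from transcription factors to transmission, where 2.30% of all genes were higher and 4.51% lower. Outside the rule, 19 list genes were higher and 41 lower. Without the GABAergic gate 13 of the 19 stayed higher, and 31 of the 36 lower genes still counted stayed lower. Against that gate alone these counts were 14 of 18 and 28 of 36, and the calls that were lost are given with each gene. With N over 2 times A as the limit, 14 of the 19 stayed higher, and *Grin2b*, *L1cam* and *Nefl* (1.97 to 1.98), *Neurod6* (1.88) and *Scn3a* (1.84) did not. Of the 9 bHLH cascade genes, 1 was higher and 3 were lower, with a median log2 ratio of -0.26. The late factor *Neurod6* was the higher one, at a ratio of 2.11 (1.28-3.35), and *Neurod2* was at 1.79 (1.34-2.37). Without the GABAergic gate these were 1.25 and 1.08, and the Eomes gate held *Neurod6* at 9.85 CPM against 7.96 in Tbr1-gated neurons, with overlapping intervals. The early factors *Neurog1*, *Neurog2* and *Neurod4* were the lower ones, *Neurog2* at 0.250 (0.203-0.306). *Neurod1* and *Nhlh2*, bHLH factors of new neurons, were at 1.19 and 1.32, but at 0.715 and 0.7999 without the GABAergic gate. The ratio of *Neurog2* was 1.66 against the GABAergic gate alone.

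Of the 13 deep layer and subplate genes counted, 2 were higher and 2 lower, with a median log2 ratio of -0.40. *Foxp2* and *Nxph4* were higher. The subplate genes *Ccn2* and *Cplx3* fell under the minimum, with 5 and 2 UMIs. *Nr4a2* was at 1.90 (1.46-2.45), on 78 UMIs in 46 cells, and at 2.34 without marked doublets. *Bcl11b*, also known as Ctip2, a zinc finger factor of early-born neurons, was at 0.757 (0.686-0.834), with 288 CPM in the GABAergic gate against 150 in Tbr1-gated neurons, and at 1.15 (1.03-1.27) without that gate. *Fezf2*, a factor of subcerebral projection neurons, was at 0.549, with 1.99 against the GABAergic gate alone and 0.357 without it. The LIM-only factor *Lmo3* was lower at 0.412, but at 0.949 without that gate. *Hs3st4* was lower too, at 0.0347 on 1 UMI in Tbr1-gated neurons. Among the 7 upper layer genes, the MADS box factor *Mef2c* alone was higher, at 2.38 (1.98-2.86), and 0 were lower.

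Regional factors gave a mixed picture. Of 13, 1 was higher and 3 lower, with a median log2 ratio of 0.27. *Lhx9* was the higher one, and it was also the most evenly found, in 312 of the 334 cells (93.4%) with a median of 3 UMIs and a maximum of 23. The pallial homeobox factor *Emx2* was at 1.93 (1.73-2.16) and the homeobox factor *Pbx3* at 1.93, while *Emx1* was at 0.894 (0.751-1.06), with 4.59 against the GABAergic gate alone and 0.559 without it. *Pax6*, of pallial progenitors, was lower at 0.490 (0.536 without the GABAergic gate), *Prox1* at 0.134, and *Dbx1*, of ventral pallium and septum, at 0.256 (0.101-0.536) on 7 UMIs in Tbr1-gated neurons. The ratio of *Dbx1* was 0.136 without marked doublets and 0.0941 with N over 2 times A as the limit.

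Of the 11 Cajal-Retzius genes counted, 2 were higher and 2 lower, with a median log2 ratio of 0.74. The lower genes were *Cacna2d2*, a calcium channel subunit, at 0.374 (0.276-0.495), and *Ndnf*, at 0.373 (0.196-0.649), and without the GABAergic gate they were at 0.383 and 0.236. The higher genes were *Calb2* (calretinin), at 3.53 (3.21-3.88), and the homeobox factor *Barhl2*, at 3.61 (3.12-4.16). Against the comparator without the GABAergic gate these were 2.24 and 2.19. *Calb2* stood at 216 CPM in Tbr1-gated neurons and 47.4 CPM in the Cajal-Retzius gate, and *Barhl2* at 96.5 and 65.6 CPM. *Reln* went the other way, with 159 and 342 CPM, against 41.4 CPM in the GABAergic gate, 91.8 in the Eomes gate and 245 in erythroid barcodes. The LIM homeobox factors *Lhx1* and *Lhx5* were at 1.87 and 1.68, or 1.16 and 1.10 without the GABAergic gate, and of the early B cell factors *Ebf1* was at 1.83, *Ebf2* at 0.656 and *Ebf3* at 0.756. Against the GABAergic gate alone *Ebf2* was at 5.66 and *Ebf3* at 4.95, and without that gate they were at 0.396 and 0.464.

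GABAergic, progenitor and cell cycle lists were low, where the rule had removed cells with *Gad1*, *Gad2* or 2 or more UMIs of *Eomes*. Of 13 GABAergic genes 12 were lower, with a median log2 ratio of -4.92, and *Zfhx3* was within the limits, at 0.863, and at 1.83 without the GABAergic gate. Of 10 basal progenitor genes 4 were lower, among them *Btg2*, *Hes6* and *Gadd45g* at 0.292, but against the GABAergic gate alone *Btg2* was at 1.08 and *Hes6* at 0.701. Of 5 apical progenitor genes outside the rule, *Notch1* and *Pax6* were lower, *Notch1* at 0.451, or 0.514 against the GABAergic gate alone and 0.256 without marked doublets. Cell cycle genes had 6 of 10 lower, with *Top2a*, a topoisomerase of dividing cells, at 0.292 (0.258-0.329) and *Ccnb1*, a mitotic cyclin, at 0.288. Without marked doublets these were 0.178 and 0.136. The cell cycle inhibitor *Cdkn1c* was also among the lower genes, at 0.409. None of the 38 genes counted in these 4 lists was higher.

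Of the neuronal cytoskeleton genes, all 9 counted outside the rule had a ratio with an interval above 1, against 16.7% of all genes, 2 were higher, and the median log2 ratio was 0.74. The intermediate filament gene *Ina* (internexin) stood at 1194 CPM against 425, a ratio of 2.81 (2.70-2.92), in 311 cells with a median of 10 UMIs. The neurofilament gene *Nefl* was at 2.25 (1.89-2.67), but at 1.86 in cells with 3 or more *Tbr1* UMIs. N, which is made of genes of the same kind, had a median of 59 in Tbr1-gated neurons and 34 in the others, and its part in these ratios was not tested.

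Adhesion genes had 3 of 14 higher and 0 lower, with a median log2 ratio of 0.48. *Pcdh9* stood at 1280 CPM against 369, a ratio of 3.48 (3.34-3.61), in 257 cells with a median of 5 UMIs and a maximum of 101. The cell adhesion gene *Nrcam* was at 2.30 and the axonal adhesion molecule *L1cam* at 2.27 (1.94-2.65), but *Nrcam* was at 1.79 without the GABAergic gate and *L1cam* at 1.91 against it alone. *Pcdh8*, another delta protocadherin, had only 41 UMIs in 36 cells, 13.6 against 9.63 CPM, and its interval of 0.984-1.98 included 1. Its ratio was 2.42 without the GABAergic gate and 0.905 against that gate alone. *Pcdh19* was at 1.60 (1.43-1.79). N-cadherin (*Cdh2*) was at 1.38.

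Axon guidance genes had 2 of 16 higher and 2 lower. The semaphorin receptors *Nrp2* and *Plxna4* were higher, at 2.48 (2.22-2.76) and 2.40 (2.16-2.66), whereas *Plxna2*, of the same receptor family, was lower at 0.275. Without the GABAergic gate *Plxna4* was at 1.96 and *Plxna2* at 0.514, both just inside the limits. The Slit receptor *Robo1* was at 1.07, with 0.678 against the GABAergic gate alone and 1.89 without it, and the netrin receptor *Dcc* at 0.783, with 1.20 and 0.622. Of 9 migration genes, the reelin receptor *Vldlr* and the netrin receptor *Unc5d* were lower, at 0.475 and 0.415, but *Vldlr* had a ratio of 0.879 and *Unc5d* of 1.77 once the GABAergic gate was left out.

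Glutamate transmission genes had 2 of 8 higher and 0 lower, with a median log2 ratio of 0.10. The higher ones were the receptor subunits *Grin2b*, at 2.39 (1.78-3.16), and *Gria2*, at 2.50 (2.22-2.80), or 1.74 and 1.94 against the GABAergic gate alone. *Slc17a6* fell just short, at 1.97 (1.81-2.14). *Grin1*, the obligate NMDA receptor subunit, had 10 UMIs, under the minimum. Among 13 synapse and excitability genes the sodium channels *Scn2a* and *Scn3a* were higher, *Scn2a* at 2.18 and *Scn3a* at the limit of 2 (1.85 without the GABAergic gate), and 0 were lower. Of 9 RNA-binding genes *Rbfox3* (NeuN) was lower at 0.373, but it stood at 1.51 against the GABAergic gate alone.

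Globin genes went with globin-rich barcodes of the comparator. *Hbb-y*, *Hba-a1* and *Hba-x* were the 3 lower of 6 non-neural genes counted, *Hbb-y* at 3948 CPM in Tbr1-gated neurons and 9658 in the others. Without the 68 globin-rich barcodes of the comparator their ratios were 1.28, 1.25 and 1.21, so that the lower level rested on those barcodes. The 1 globin-rich Tbr1-gated neuron was kept in this setting. Of the 11911 *Hbb-y* UMIs in Tbr1-gated neurons 1 cell held 1743, so that ratios above 1 are not read as a higher level. Against the GABAergic gate alone the ratios of the 3 genes were 0.944, 0.921 and 0.853. *Hba-a1* has a near-identical copy, with which it may share reads. Of 5 immediate early and stress genes, *Egr1* was higher at 2.18 (1.92-2.46), or 1.73 against the GABAergic gate alone, with *Junb* at 1.91 and *Fos* at 1.77.

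**Figure D3:**
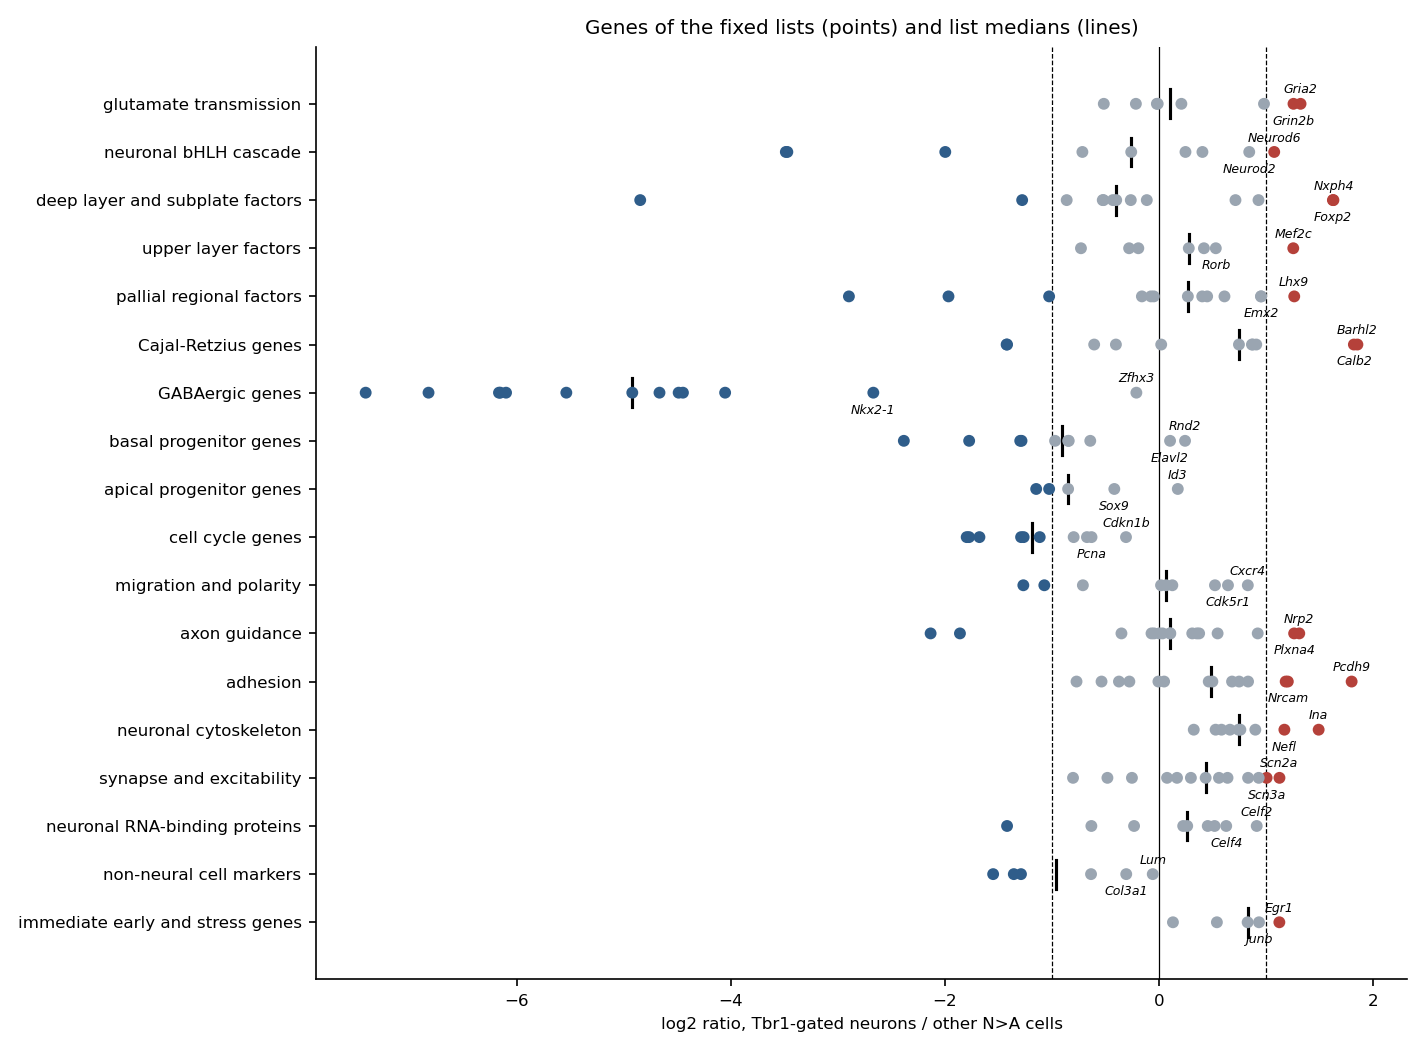
Points are the log2 ratios of list genes (Tbr1-gated neurons over other N>A cells), vertical bars are the medians of the lists, and dashed lines mark 2-fold, with higher genes in red and lower genes in blue. Cytoskeleton genes all lie right of 0, with a median of 0.74, and GABAergic genes lie far left, with a median of -4.92.

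Higher genes were long. The 261 genes at 2 or more had a median span of 90.7 kb on GRCm38, 48.7% of them longer than 100 kb, against 27.2 kb and 17.1% over all genes counted. The 15 leading genes had a median of 257 kb. In the septal explants, where kit and Cell Ranger version were others, the higher genes had a median of 71.3 kb, 40.6% of them longer than 100 kb, against 23.4 kb and 12.8% over all. Whether intronic reads were counted in the telencephalic vesicle is not stated in the sources used here, and the part of gene length in these ratios was not tested.

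Promoters were read because the cascade that defines these neurons runs through bHLH factors, which bind E-boxes, and T-box factors. Of 259 higher genes outside the rule, 179 matched the RefSeq promoter table (GRCm38.p6), with 266 promoters, and the 250 bases before each start were searched on both strands. The E-box reads CAGATG on one strand or CATCTG on the other, and it was in 33 of them (12.4%, 8.70-17.0%), against 9.76% over all genes counted and 14.4% over all promoters in the table. The T-box letters, GGTGTGA on one strand or TCACACC on the other, were in 3.38%, against 2.67% and 3.33%. The interval of the higher genes included both background shares for each motif (1.56-6.33% for the T-box), and a promoter can hold both. As examples from 3 roles, the windows of *Arpp21* (leading gene, ratio 4.93, chr9:112217262-112217511, minus strand), *Mef2c* (transcription factor, 2.38, chr13:83573357-83573606, plus strand) and *L1cam* (axonal adhesion, 2.27, chrX:73880791-73881040, minus strand) are shown 5′ to 3′, ending at the base before the start, with the E-box in capitals.
Arpp21: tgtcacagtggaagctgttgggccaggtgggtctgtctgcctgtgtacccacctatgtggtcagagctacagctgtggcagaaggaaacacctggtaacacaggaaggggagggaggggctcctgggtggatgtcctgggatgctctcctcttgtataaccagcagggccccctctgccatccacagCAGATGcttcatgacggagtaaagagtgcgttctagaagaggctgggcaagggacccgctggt
Mef2c: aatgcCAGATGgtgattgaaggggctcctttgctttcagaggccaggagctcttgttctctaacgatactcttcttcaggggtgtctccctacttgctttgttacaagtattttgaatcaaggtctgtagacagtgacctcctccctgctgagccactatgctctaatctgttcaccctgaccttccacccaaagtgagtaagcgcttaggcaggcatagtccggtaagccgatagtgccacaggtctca
L1cam: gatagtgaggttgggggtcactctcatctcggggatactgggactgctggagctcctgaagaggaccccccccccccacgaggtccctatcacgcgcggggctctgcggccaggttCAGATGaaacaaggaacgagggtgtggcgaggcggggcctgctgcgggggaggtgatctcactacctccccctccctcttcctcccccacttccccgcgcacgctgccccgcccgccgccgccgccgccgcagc
The E-box begins 63 bases before the start in *Arpp21*, 245 in *Mef2c* and 134 in *L1cam*. A match of letters is a description and does not show that a factor binds there.

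The 334 cells were not uniform. The 34 cells richest in a gene held 28.0% of the UMIs of *Lhx9*, 28.7% of *Slc17a6* and 25.7% of *Ina*. The same number of cells held 71.7% of the UMIs of *Foxp2* (found in 134 cells), 61.0% of *Calb2* (128 cells), 63.6% of *Reln* (119 cells), 75.4% of *Trpm3* and 86.2% of *Gpc5*. Thus the high summed level of *Foxp2* or *Trpm3* came from a minority, and in 200 cells no UMI of *Foxp2* was seen.

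The cells were ordered by N/A and divided into groups of 112, 111 and 111 cells. N and A order the cells, so their genes are not results. Other genes that go with those of N or A follow this order in part by construction, and their values describe it. The group of low N/A held 32 of the 34 marked doublets, the middle group 2 and the high group 0. Over 4009 genes, 572 (14.3%) were at a ratio of 1.5 or more in the high against the low group. The largest ratios were those of *Adarb2* (10.7), *Gm13404* (6.08), *Sema6d* (5.31), *Sorcs3* (4.53) and *Nrxn3* (4.35), and the smallest those of *Gm29478* (0.00702), *Creb5*, *Tcf7l1*, *Mecom* and *Tcf7l2*.

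Because of the marked doublets, the order was made again from the 300 unmarked cells, in groups of 100. Scrublet had marked 6.37% of the barcodes with enough UMIs, where the rate given to it was 11.4%, so that unmarked doublets may remain. The low group of unmarked cells held a barcode of 66021 UMIs, against a group median of 6167. Of 3146 genes, 319 (10.1%) were then higher and 207 (6.58%) lower. *Trpm3* stood at 65.5 CPM in the low, 173 in the middle and 381 in the high group, a ratio of 5.82 (4.33-7.96). *Sema6d*, a semaphorin, had a ratio of 6.42 (3.72-11.9). Others with large ratios were *Resp18*, *Galntl6*, the teneurin gene *Tenm2* (3.96), *Samd5*, *Arpp21* (3.84), the postsynaptic scaffold gene *Dlg2* (3.83) and *Sorcs3*. *Adarb2* was no longer among them, with 41.6 CPM in the low group of unmarked cells against 10.1 in that of all cells.

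The lowest gene in cells of high N/A was the cell cycle inhibitor *Cdkn1a*, at 0.0719 (0.0302-0.147). The nuclear factors *Nfia* and *Nfib* followed at 0.100 and 0.244, the replication factor *Pclaf* at 0.118, the growth factor *Mdk* at 0.156 and cyclin D2 (*Ccnd2*) at 0.227. *Rspo3*, *Grb10*, *Hmga2* and *Siva1* completed the 10. Of the 104 list genes counted outside the rule, 26 were higher and 19 lower. *Foxp2* stood at 290 CPM in the low, 404 in the middle and 912 in the high group, a ratio of 3.15 (2.71-3.66). *Robo1* stood at 536 and 1415 CPM, a ratio of 2.64, with *Pcdh9* at 2.30 and *Ina* at 2.25. Of 8 basal progenitor genes counted 5 were lower, such as *Mfng* at 0.318 and *Gadd45g* at 0.386, and *Neurod1* was at 0.486. By contrast, *Lhx9* stood at 432 and 545 CPM, a ratio of 1.26 (1.10-1.46), and *Slc17a6* at 252 and 292 CPM, a ratio of 1.16 (0.958-1.40). *Foxp2*, *Robo1* and *Trpm3* thus went with the N/A order, and *Lhx9* and *Slc17a6* stayed within 1.5-fold. In the order of all 334 cells, whose low group holds most of the marked doublets, *Lhx9* was at 1.87 (1.63-2.15) and *Slc17a6* at 1.55 (1.30-1.86).

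**Figure D4:**
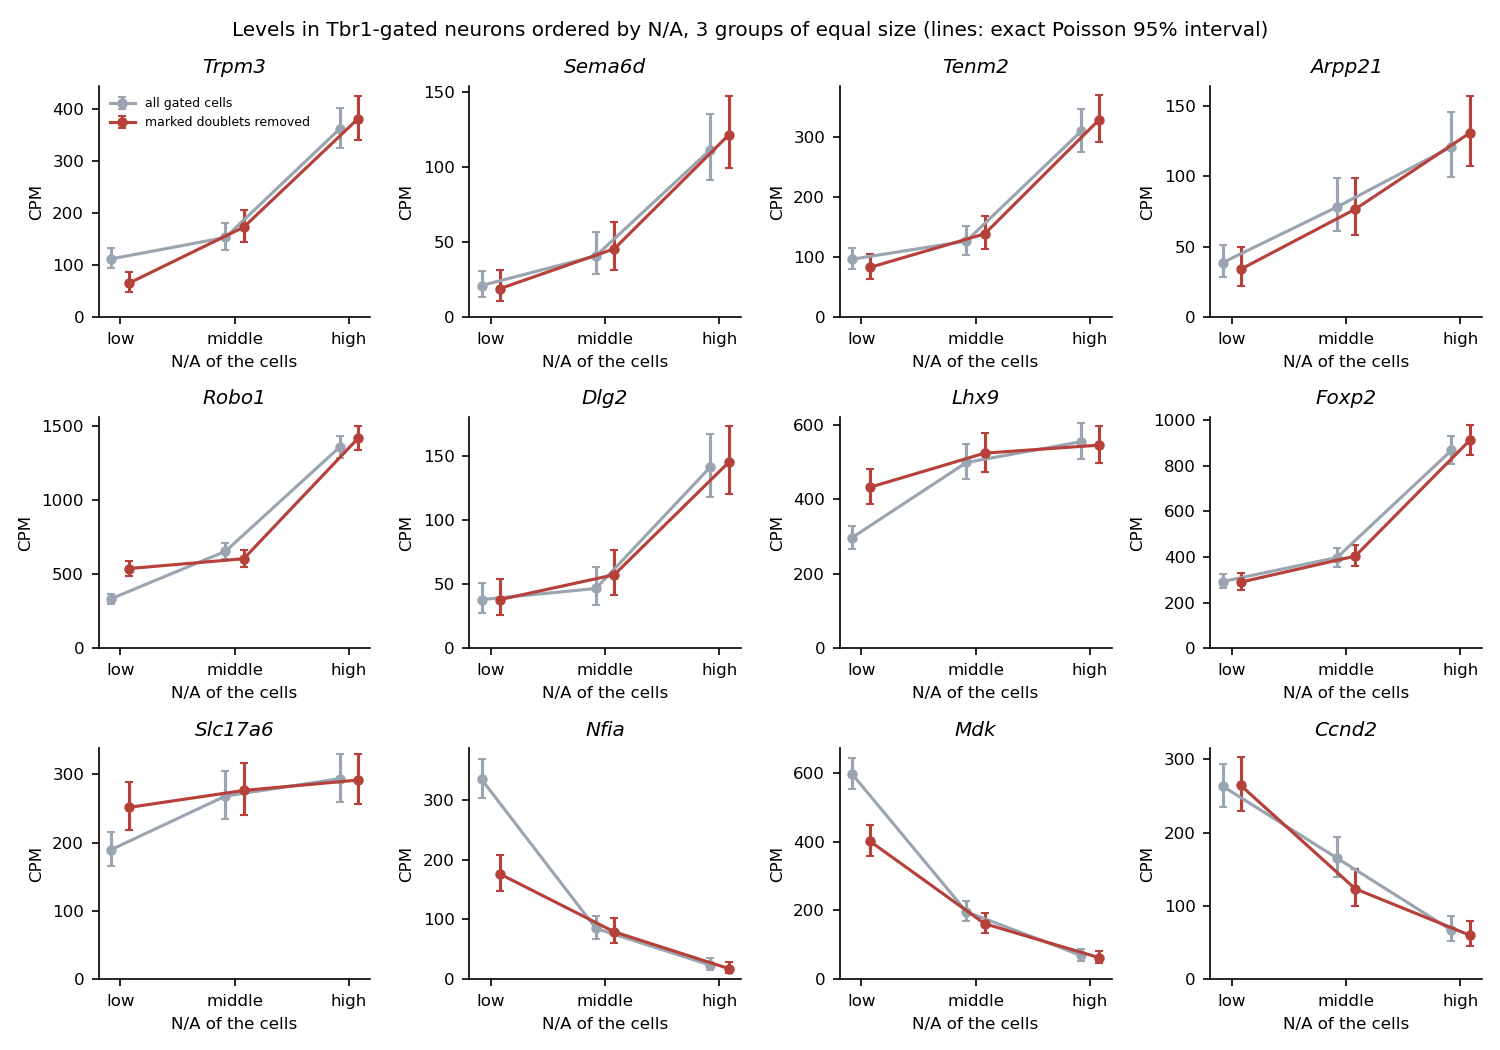
Level (CPM) of 12 genes in Tbr1-gated neurons of low, middle and high N/A, with grey for all cells and red without cells marked as doublets, and with lines for the exact Poisson 95% interval. *Trpm3* goes from 65.5 to 381 CPM without marked doublets and *Foxp2* from 290 to 912, whereas *Slc17a6* stays between 252 and 292.

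*Nr4a2* marks subplate and claustral neurons, the fates that the study follows. With cells thinned to 2500 UMIs, 20 Tbr1-gated neurons had an *Nr4a2* UMI and 314 had none. Over 1609 genes, 162 (10.1%) were at 1.5 or more and 251 (15.6%) at 1/1.5 or less. With all UMIs of the cells 5040 genes could be counted, and more were higher (244) than lower (206). *Dab1*, the adaptor of reelin signalling, stood at 620 CPM in *Nr4a2*-positive cells and 130 in the others, a ratio of 4.77 (3.08-7.19). It rested on 31 UMIs in the 20 positive cells, and before thinning 1 gated cell held 30 UMIs of *Dab1*. *Robo1* was at 3.34 (2.65-4.17), *Bach2* at 2.82, *Nxph1* at 2.57, *Foxp2* at 2.49 (1.80-3.37) and *Kcnh7* at 2.60. *Atxn1*, *Ubap2l*, *Tshz3* and *Vezt* were between 2.89 and 3.61, on 16 to 20 UMIs in positive cells. With so few UMIs, a small number of cells could make these ratios. *Ebf2* was at 0.101 (0.00255-0.573) on 1 UMI in positive cells, and *Hmgb2* at 0.252, but at 1.30 with all UMIs of the cells. *C1d* had 0 UMIs in positive cells, so that with 3 counts as a floor it was at least 2.23-fold lower. Its exact interval reached up to a ratio of 0.561. *Slc17a6* was at 0.607 (0.259-1.22). The share of cells with *Nr4a2* lay above that in the GABAergic and Eomes gates and overlapped that at 1 *Tbr1* UMI, in the Cajal-Retzius gate and in erythroid barcodes, and the part of free RNA in this split was not tested.

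A further split was chosen after the data were seen. Of the thinned cells, 100 had a UMI of *Emx1* or *Bcl11b* and none of *Lhx1* or *Lhx5*, 69 had the reverse, 21 had both and 144 neither. Over 703 genes, 65 (9.25%) were at 1.5 or more in the first set and 38 (5.41%) at 1/1.5 or less. *Lrfn5* stood at 452 CPM in the cells with *Emx1* or *Bcl11b* and 46.4 CPM in those with *Lhx1* or *Lhx5*, a ratio of 9.75 (4.78-23.1). *Pcdh9* stood at 2068 and 273 CPM, a ratio of 7.59 (5.62-10.5), and *Nxph1* and the neuronal adhesion gene *Negr1* were at 8.08 and 6.09. *Robo2* followed at 3.42, *Vcan* at 3.08, *Celf2* at 3.02, and *C130071C03Rik*, *Rgs7* and *Lcorl* at 2.99 to 3.14.

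The cells with *Lhx1* or *Lhx5* were higher in *Nrg3*, a neuregulin, at a ratio of the first set to the second of 0.160 (0.0990-0.249). *Unc5c*, a netrin receptor, was at 0.315 (0.219-0.448), *Fam155a* at 0.329, *Cdkn1c* at 0.375, *Calb2* at 0.418 (0.283-0.610), the imprinted gene *Nnat* at 0.433, *Zfhx3* at 0.442 and *Grik2* at 0.542. *Neurod2* was found in 9 of the 100 cells and in 0 of the 69, which allows a share of up to 5.21% of thinned cells with a UMI (exact interval) and does not show that the gene is absent. The interval of the 9 cells, 4.20-16.4%, overlaps that range. *Slc17a6* was found in 43.0% and 44.9%. *Pcdh9* and *Lrfn5* were thus higher in the cells with *Emx1* or *Bcl11b*, *Nrg3*, *Unc5c* and *Calb2* were higher in the cells with *Lhx1* or *Lhx5*, and the intervals of *Slc17a6* overlapped.

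The same rule applied to the septal explants kept 267 cells, 14.4% (12.9-16.1%) of 1848 N>A cells. These cells were deeper, with a median of 12103 UMIs, and kit and Cell Ranger version differ. Levels are therefore not compared, and only ratios within a library and shares of thinned cells are set side by side. *Neurod2* was found in 133 of the 267 cells (49.8%) and *Neurod6* in 108 (40.4%), against 9.56% and 6.25% of the GABAergic gate of that library. In thinned cells these shares were 36.3% and 28.5%, against 3.68% and 2.21%. The septal Eomes gate held the genes in 39.3% and 26.8% of thinned cells, which overlaps the gated cells, and the thinned Tbr1-gated neurons of the telencephalic vesicle in 3.89% and 1.80%. *Slc17a6* was found in 155 cells (58.1%), at a ratio of 1.49 (1.30-1.71) to the other N>A cells. With cells thinned it was in 19.1%, against 44.6% in the telencephalic vesicle. These 3 shares thus differed between the libraries in thinned cells too. Thinning matched only the UMIs per cell, and not kit or Cell Ranger version. Age, dissected region, genotype, kit and Cell Ranger version cannot be told apart.

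Over 9835 septal genes, 294 (2.99%) were at 2 or more and 526 (5.35%) at 0.5 or less. Of the 259 higher genes of the telencephalic vesicle outside the rule, 155 had enough septal UMIs, and 94 of these (60.6%) were at 2 or more there. Of the 507 lower genes, 327 were counted and 234 (71.6%) were at 0.5 or less. Of the 15 leading genes only *Lrfn5* and *Samd3* had enough UMIs, at septal ratios of 7.63 and 2.64 (2.41-2.88). *Mef2c* was at 4.83, more than its 2.38 in the telencephalic vesicle. *Foxp2*, at 3.08 in the telencephalic vesicle, was at 2.99 (2.62-3.41), and *Lhx9* at 1.31 (1.21-1.42). The layer factors *Bcl11b*, *Zfpm2*, *Nfia* and *Bhlhe22* were above 2 in the septal explants and below 1 in the telencephalic vesicle. The GABAergic gate was 41.2% of the comparator in the telencephalic vesicle and 17.2% in the septal explants. Without it in both libraries, *Bcl11b* was at 1.15 and 2.25, on the same side of 1, and the interval of *Zfpm2* in the telencephalic vesicle (0.688-1.24) included 1. *Nfia*, at 0.541 and 1.81, and *Bhlhe22*, at 0.371 and 2.47, stayed on opposite sides of 1. In the telencephalic vesicle *Bhlhe22* had only 23 UMIs in 18 gated cells, and 34 gated cells held 81.7% of the UMIs of *Nfia*. The rule chose the cells in both libraries by the same genes, which by itself makes ratios alike for the genes of the rule and those that go with them.

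**Figure D5:**
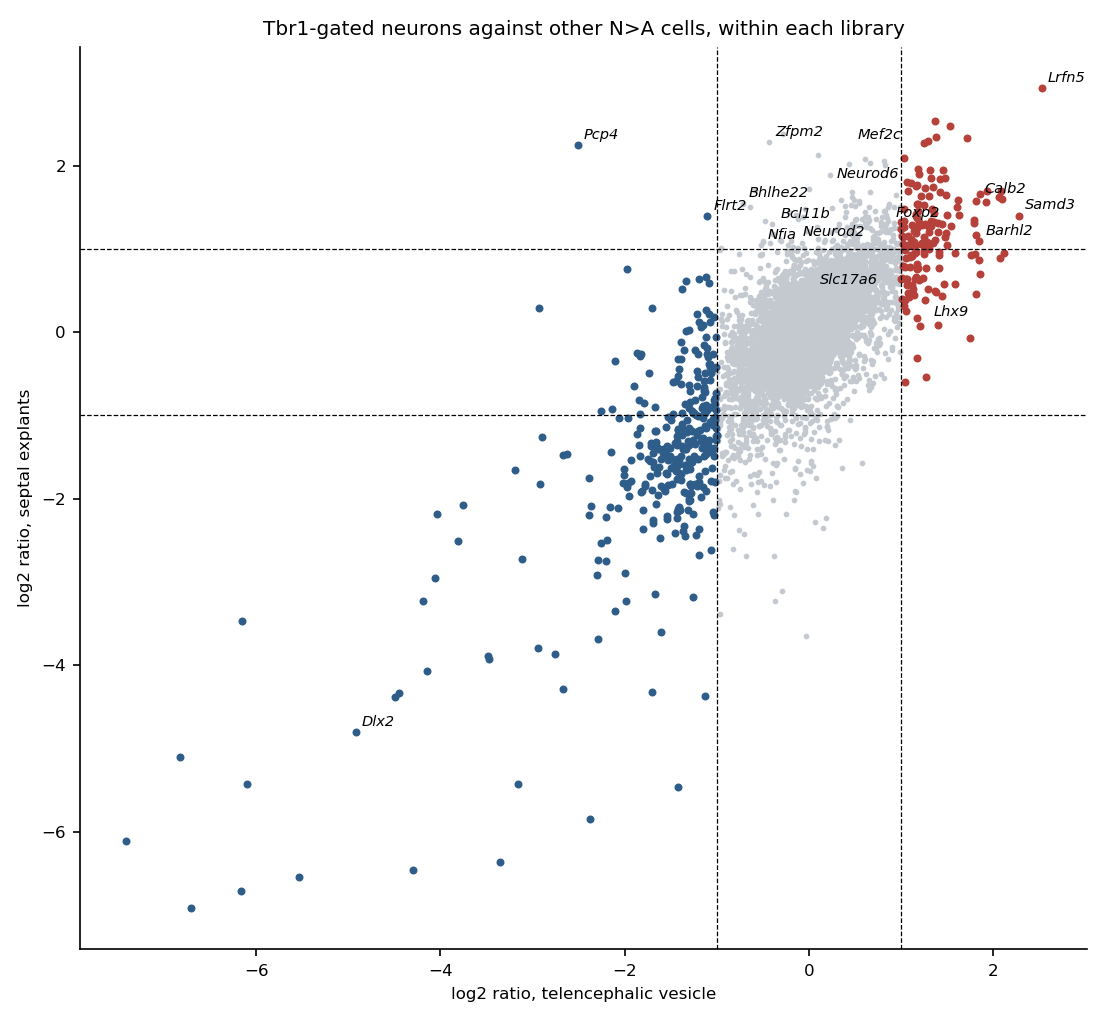
Each point is a gene counted in both libraries, with its log2 ratio of Tbr1-gated neurons to other N>A cells in the telencephalic vesicle and in the septal explants, where dashed lines mark 2-fold, and red and blue are genes higher or lower in the telencephalic vesicle. *Lrfn5* is at the upper right, and *Pcp4* and *Flrt2*, lower in the telencephalic vesicle and higher in the septal explants, lie at the upper left.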

How the data were processed

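The authors deposited raw counts, the UMIs per gene and barcode, without normalisation. For the septal explants they used Cell Ranger 2.1.1 on mm10 with reporter sequences added. For the telencephalic vesicle the submitters' processing notes name Cell Ranger 7.1.0 and mm10, and whether intronic reads were counted is not given in the sources used here. Gene positions and promoters are from GRCm38.p6.

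From these counts UMIs were summed over cells and scaled to 1000000 (CPM), and ratios were taken between sums, with exact Poisson, binomial and Clopper-Pearson 95% intervals. With 1 library per condition no test was made. Genes needed 100 UMIs over both sets, and were counted past 2-fold, or past 1.5-fold within the gated cells. Thinning kept 2500 UMIs per cell. Scrublet, run through scanpy 1.11.5, marked doublets, given a rate of 0.8% for every 1000 barcodes. It marked 5 of the 5827 septal barcodes (0.0858%), too few to be used, so septal doublets were kept.

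The genes named are those of the 18 lists, and the 15 highest and 15 lowest ratios (10 each within the gated cells) with an interval past the fold, without genes of the gate, mitochondrial genes, *Xist*, *Tsix*, *Ddx3y*, *Eif2s3y*, *Kdm5d* and *Uty*. Some genes are not reported here. The gate, the lists and the tests were chosen with earlier results of these data known. The alternatives varied the gate, doublets, depth, gene minimum, comparator and scaling. The ratio, its interval, the fold calls and thinning were tested on simulated counts, which had no spread between cells beyond counting error. The gate, the doublet marks, the order by N/A and the splits were not tested in this way. All steps ran in Python 3.11.15 with pandas 2.3.3, numpy 2.4.6, scipy 1.17.1 and matplotlib 3.10.9.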

Additional observations from a re-analysis of the deposited data

Results flagged for a closer look

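Between the libraries, 2 genes lay past 2-fold in opposite directions. *Flrt2*, an adhesion molecule, had a ratio of Tbr1-gated neurons to other N>A cells of 0.466 (0.366-0.586) in the telencephalic vesicle and of 2.63 (1.77-3.84) in the septal explants. *Pcp4*, a calmodulin-binding peptide, had a ratio of 0.175 (0.0472-0.458), on 4 UMIs in Tbr1-gated neurons, and a septal ratio of 4.73 (4.30-5.20). Both were chosen after their values were seen.

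Further list genes were past 2-fold in the septal explants, whereas their ratio was below 1 in the telencephalic vesicle. *Bcl11b* was at 2.46 (2.30-2.64) there against 0.757 (0.686-0.834) in the telencephalic vesicle, *Zfpm2* at 4.85 (3.23-7.26) and 0.741 (0.555-0.972), *Nfia* at 2.07 (1.89-2.26) and 0.697 (0.635-0.765), or 0.428 in the telencephalic vesicle without marked doublets, and *Bhlhe22* at 2.91 (2.54-3.34) and 0.608 (0.379-0.932). With the GABAergic gate left out of both comparators, chosen after the data were seen, *Bcl11b* had a septal ratio of 2.25 and a telencephalic ratio of 1.15 (1.03-1.27), with *Zfpm2* at 4.15 and 0.931 (0.688-1.24), *Nfia* at 1.81 and 0.541, *Bhlhe22* at 2.47 and 0.371, and *Flrt2* at 2.27 and 0.721. In Tbr1-gated neurons of the telencephalic vesicle *Bhlhe22* had only 23 UMIs in 18 cells, and 34 cells held 81.7% of the UMIs of *Nfia*. None of these differences was tested, since each library has no replicate.

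The gene tables also hold added sequences that no comparison used. LacZ had 11 UMIs in 9 barcodes of the telencephalic vesicle and 0 in Tbr1-gated neurons. In the septal explants eYFP had 30550 UMIs and was found in 161 of the 267 gated cells (60.3%, 54.2-66.2%) against 71.8% (69.5-74.0%) of the other N>A cells. The tdTomato sequence had 843 UMIs and was found in 39 gated cells (14.6%, 10.6-19.4%) against 8.67% (7.33-10.2%), and IRESCRE had 27 UMIs and was found in 4 gated cells and 10 of the others.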

How the results depend on the processing

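The number of genes past 2-fold, 261 higher and 511 lower, depended most on the gene minimum. With a minimum of 20 UMIs it was 607 higher and 1047 lower, and with no minimum 2150 and 1146. It stayed within 1.5 times under the other alternatives of gate, doublets, thinning, cell weight, comparator and scaling, from 182 to 308 higher and from 391 to 733 lower. With no minimum, 65.2% of the genes past 2-fold were higher, against 33.8% as reported. Of the 30 leading genes, those that could be counted (21 to 30) were past 2-fold under each alternative. Among the list genes past 2-fold as reported, 3 ratios changed side with the GABAergic gate alone as comparator, *Neurog2* to 1.66, *Btg2* to 1.08 and *Rbfox3* to 1.51. Without that gate *Unc5d* was at 1.77. Of the list genes within 2-fold as reported, 24 of 113 crossed 1 against the GABAergic gate alone, such as *Ebf2* from 0.656 to 5.66, and 20 of 116 without it, such as *Cdh8* from 0.688 to 2.56. Under the other settings of gate, doublets, thinning, weight, gene minimum and scaling at most 10 crossed. An alternative chosen after the data were seen left globin-rich barcodes out of the comparator only, and not out of the Tbr1-gated neurons. *Hbb-y* was then at 1.28, *Hba-a1* at 1.25 and *Hba-x* at 1.21. With the GABAergic gate left out as well, *Unc5d* was at 1.71, *Hbb-y* at 1.19, *Hba-a1* at 1.16 and *Hba-x* at 1.15. These changes follow from the cells left out. In the order by N/A, 165 genes were higher and 104 lower when cells were thinned, where 988 genes could be counted, and 319 and 207 without marked doublets. In the *Nr4a2* split, 244 of 5040 genes were higher and 206 lower with all UMIs, against 162 and 251 of 1609 as reported, and *Hmgb2* was at 1.30, where the cause was not tested. In the septal explants, thinned cells gave 44 of 61 higher and 91 of 124 lower genes past 2-fold. Over all values of single genes, 2488 stayed within their interval, 664 did not, and 12 past their fold changed side. Removal of septal doublets was not run, since the caller marked too few. No paired analysis was possible because each condition has 1 library, and for the same reason no library could be left out. Depth limits rare genes, and at a median of 7182 UMIs per cell a gene without a UMI in a cell is not shown to be absent from it.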
